A study of Mus musculus with 6 samples.

Results

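The regenerating islet (Reg) family was read on 6 Affymetrix arrays of isolated mouse pancreatic islets, through every probe set whose platform annotation gave exactly 1 gene symbol and that symbol was Reg1, Reg2, Reg3a, Reg3b, Reg3d, Reg3g or Reg4. This gave 7 genes of the 18193 with such a probe set, and 8 probe sets of 45037, since Reg3b had 2. Of the 6 arrays, 3 were of Vhlh knockout islets, from mice in which Vhlh, the von Hippel-Lindau gene, is deleted in beta cells by Cre under the rat insulin promoter (RIP2-Cre with Vhlh(fl/fl) alleles), and the other 3 were of control islets. The labels give the same model text for both genotypes and do not say which of these alleles the controls carry. In each genotype, array 01 came from mice of 26 weeks labelled male, array 02 from mice of 20 weeks labelled female and array 03 from mice of 18 weeks labelled male. Each array was a batch of islets, the sources used here do not say how many mice went into one, and the errors below measure the spread between batches.

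Reg proteins are small secreted proteins with a single C-type lectin fold. The first member was cloned from regenerating rat islets, and in the healthy pancreas most members are made by acinar cells, the enzyme-secreting cells of the exocrine tissue that surrounds the islets. Several members are induced in acinar cells by pancreatitis, in gut epithelium by microbes, and by cytokines of the IL-6 group, which signal through the receptor subunit gp130 and the transcription factor STAT3. Reg transcripts in islet RNA can therefore come from islet cells or from exocrine tissue carried over with them.

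No difference between the genotypes beyond the spread between batches was shown for the Reg genes that could be tested. Of the 7 genes, 5 were bright enough to test, and 0 of these 5 passed limma at an adjusted p of 0.05, 0 had an unadjusted p under 0.05 and 0 had knockout and control signals that did not overlap. Over all 11609 genes tested, 0.0172% passed, 2.58% had an unadjusted p under 0.05 and 6.75% had groups that did not overlap (3.98% with the knockout higher and 2.77% with it lower). The Reg signals ranged widely across the arrays. Reg2 had the widest range of log2 signal of all 11609 genes, Reg3b the fifth widest, Reg1 ranked 26, Reg3d 33 and Reg3a 54. For Reg1, Reg2, Reg3a, Reg3d and the dim Reg3g, arrays numbered 02 were the highest and arrays numbered 03 the lowest in both genotypes. The levels of acinar enzyme transcripts were likewise highest on the 02 arrays and lowest on the 03 arrays. In whole islet RNA, fewer cells of a type and less RNA per cell cannot be told apart.

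In the RefSeq annotation of assembly GRCm38.p6, 6 of the 7 genes lie next to each other on chromosome 6 in the order Reg3b, Reg3d, Reg3a, Reg2, Reg1 and Reg3g, with the pseudogene Gm52853 between the last pair as the single other annotated gene. Reg4 lies on chromosome 3. The 250 bases before the annotated start were found for 7 of 7 members. They are shown here for the 5 genes that were tested, since their signals varied together across the arrays. They are chr6:78425733-78425982 (+ strand) for Reg1, chr6:78404905-78405154 (+) for Reg2, chr6:78370635-78370884 (+) for Reg3b, chr6:78378866-78379115 (- strand) for Reg3d and chr6:78380459-78380708 (+) for Reg3a. Each is written 5′ to 3′ with its gene, and capitals mark the E-box CACCTG, the TC box TTCCCA and the TATA box TATAAA on either strand.
Reg1: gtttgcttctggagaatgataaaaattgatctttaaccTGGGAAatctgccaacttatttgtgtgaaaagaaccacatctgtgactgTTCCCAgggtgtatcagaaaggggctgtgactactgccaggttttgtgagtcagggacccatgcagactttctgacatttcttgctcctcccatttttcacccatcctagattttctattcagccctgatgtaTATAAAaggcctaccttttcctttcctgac
Reg2: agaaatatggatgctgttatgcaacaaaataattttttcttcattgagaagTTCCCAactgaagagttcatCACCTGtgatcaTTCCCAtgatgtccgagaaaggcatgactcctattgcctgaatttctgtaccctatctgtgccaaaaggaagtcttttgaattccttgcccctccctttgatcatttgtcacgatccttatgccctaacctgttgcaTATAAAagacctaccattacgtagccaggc
Reg3b: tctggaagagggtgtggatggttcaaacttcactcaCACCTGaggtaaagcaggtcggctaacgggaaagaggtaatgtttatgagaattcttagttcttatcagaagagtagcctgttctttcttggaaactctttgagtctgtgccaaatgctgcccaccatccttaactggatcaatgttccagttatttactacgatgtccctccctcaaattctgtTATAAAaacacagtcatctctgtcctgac
Reg3d: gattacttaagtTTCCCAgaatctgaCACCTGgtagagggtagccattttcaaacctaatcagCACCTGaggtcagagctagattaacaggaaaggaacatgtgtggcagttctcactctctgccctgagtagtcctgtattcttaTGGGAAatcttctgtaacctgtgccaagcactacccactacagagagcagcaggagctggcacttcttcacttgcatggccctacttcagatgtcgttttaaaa
Reg3a: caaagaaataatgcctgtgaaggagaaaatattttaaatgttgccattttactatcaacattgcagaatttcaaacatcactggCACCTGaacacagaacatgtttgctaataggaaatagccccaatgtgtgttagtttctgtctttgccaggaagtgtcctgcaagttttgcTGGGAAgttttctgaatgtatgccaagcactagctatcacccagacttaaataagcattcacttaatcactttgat

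Searched on both strands, the E-box CACCTG was present before 5 of the 7 genes (Reg2, Reg3a, Reg3b, Reg3d and Reg4), against 17.2% of all 32851 promoter windows of the same length. The TC box TTCCCA was present before 5 of the 7 (Reg1, Reg2, Reg3a, Reg3d and Reg3g), against 21.6% of all windows. An E-box with a TC box is the kind of composite element bound by PTF1, the transcription factor complex of acinar cells. Reg2, Reg3a and Reg3d held both, but the share of all windows that hold both was not counted. In Reg2 the E-box at 179 to 174 bases before the start was followed by a TC box at 167 to 162. In Reg3d a TC box at 238 to 233 was followed by an E-box at 224 to 219. The TATA box was at 30 to 25 bases before the start in both Reg1 and Reg2, at 29 to 24 in Reg3b and at 27 to 22 in Reg3g. These 4 of the 7 genes had a match, against 12.4% of windows. The STAT motif TTCNNNGAA, which is its own reverse complement, was found before Reg3b, at 129 to 121 bases, and before Reg3d, where it overlaps a TC box, against 7.02% of windows. Of the core motifs of the hypoxia-inducible factor (HIF), ACGTG was found before Reg4 alone (16.6% of windows) and GCGTG before 0 of the 7 genes (28.2% of windows). In global alignments the windows of Reg3b and Reg3g were the most alike, with 68.9% identical positions, followed by Reg1 and Reg2 with 58.5%. All other pairs, Reg4 included, had between 47.8% and 54.5%. These matches describe the letters in the windows and do not show binding.

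**Figure D1:**
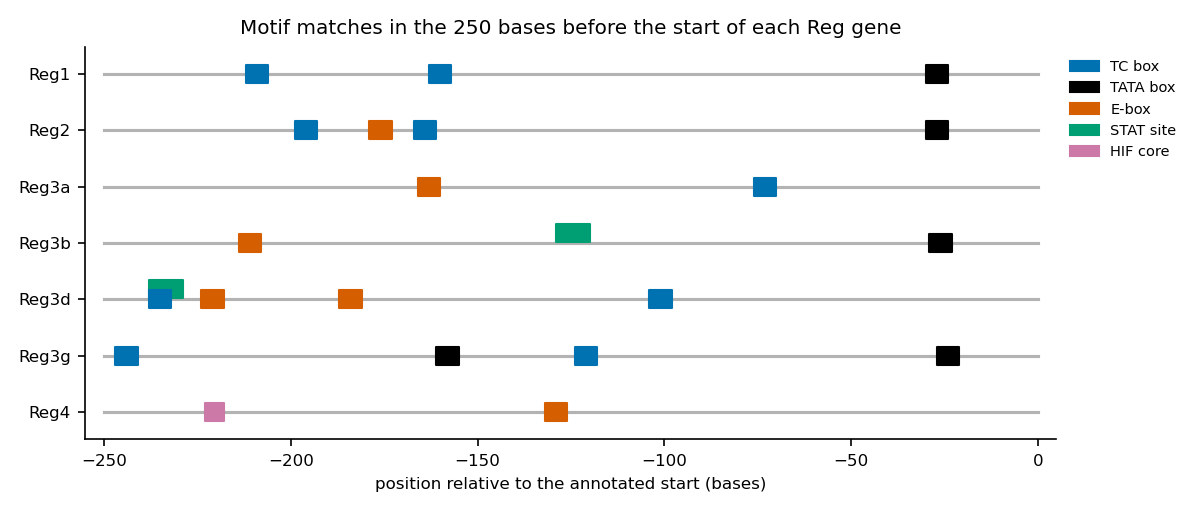
Motif matches on either strand in the 250 bases before the annotated start of each Reg gene, with the position in bases relative to the start on the horizontal axis. Bars mark the E-box, TC box, TATA box, STAT site and HIF core. In the window of Reg3d a STAT site overlaps a TC box. Reg1 and Reg2 have their TATA box at the same distance, and Reg3b and Reg3g have a match close to it.

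The values are MAS5 signals, the array software's brightness estimate for a probe set on a linear scale, and signals of different probe sets cannot be ranked against each other as transcript amounts. Array medians lay between 101.9 and 122.7 units. Hormone transcripts of islets were bright on all 6 arrays: the amylin gene Iapp had 64210, 60047 and 24545 units on knockout arrays 01, 02 and 03, against 49923, 54714 and 31285 on control arrays 01, 02 and 03. The Vhl probe set that could be tested had 344, 358 and 467 units in knockout islets, against 457, 639 and 839 in control islets. The knockout minus control value was -0.70 on the log2 scale (SE 0.32, limma adjusted p 0.9998), and whether its probes fall in the deleted exons is not known here. Of a list of 12 HIF targets, 12 had a positive log2 difference with a median of 2.00, and 1 (Ak4) passed the test, or 3 with the replicate number as a block. Ak4 had 18.1, 72.1 and 16.7 units on control arrays 01, 02 and 03, all below the array medians. The control signals of Egln3 and Adm were also all below them. These genes were thus tested through the knockout arrays alone, and their differences have no firm size. The median of the HIF target list was 1.92 after 50 units were added to each signal. This list and the others below were chosen with earlier results of these data known.

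Reg1, also known as pancreatic stone protein or lithostathine, was at percentile 99.6 or higher of all probe sets on the arrays numbered 01 and 02. Its signal was 24951, 53575 and 478 units on knockout arrays 01, 02 and 03, against 21357, 40555 and 3350 on control arrays 01, 02 and 03. Both 03 arrays were far below the others, and the genotypes overlapped. The mean log2 signal was 13.07 ± 3.65 in knockout and 13.80 ± 1.87 in control islets (SD, n = 3 each), and the knockout minus control difference was -0.73 (SE 1.57, 95% interval -4.27 to 2.81, limma adjusted p 0.9998). Its signal on knockout array 02 was near the brightest of that array, 76826 units, and whether the scale is compressed there was not tested.

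Reg2, the close mouse relative of Reg1, spanned the widest range. It had 16011, 52445 and 30.4 units on knockout arrays 01, 02 and 03, against 5457, 37501 and 298 on control arrays 01, 02 and 03. The highest signal was 1724-fold the lowest, and 653-fold after 50 units were added to each signal, which still ranked Reg2 as the widest of all genes tested. On knockout array 03 Reg2 was below the array median, at percentile 24.2 of all probe sets, while on knockout array 02 it was at percentile 99.9. The mean log2 signal was 11.52 ± 5.78 in knockout and 11.94 ± 3.51 in control islets (SD, n = 3 each), with a difference of -0.42 (SE 2.58, 95% interval -6.22 to 5.38, limma adjusted p 0.9998).

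Reg3b, also called pancreatitis-associated protein for its induction in the inflamed pancreas, differed between the genotypes in opposite directions from pair to pair. Its brighter probe set had 8702, 7909 and 17.1 units on knockout arrays 01, 02 and 03, against 445, 16326 and 44.7 on control arrays 01, 02 and 03. Knockout array 01 was 19.6-fold above control array 01, whereas knockout array 02 was below control array 02 (log2 difference -1.05), and both 03 arrays were below the array medians. The second probe set, whose _s_at name marks probes that can also bind related transcripts, had 1179, 1987 and 20.1 units in knockout islets, against 214, 4537 and 70.3 in control islets, and was likewise higher in the knockout in pair 01 and lower in pairs 02 and 03. Over the 3 arrays of each genotype the log2 difference was 0.62 for the brighter probe set (SE 2.56, limma adjusted p 0.9998) and -0.18 for the second (SE 1.83, adjusted p 0.9999 in the limma fit of every probe set). In that fit 0 of the Reg probe sets passed, against 0.0173% of all 23093. The probe sets thus gave means of opposite sign, both small beside the error.

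Reg3d, listed in RefSeq with the synonym INGAP (islet neogenesis-associated protein), had 1268, 5591 and 59.5 units on knockout arrays 01, 02 and 03, against 1023, 4184 and 147 on control arrays 01, 02 and 03. Its groups overlapped, and the log2 difference was -0.19 (SE 1.59, 95% interval -3.77 to 3.38, limma adjusted p 0.9998). Reg3a had 269, 1434 and 26.9 units in knockout islets, against 68.8, 1389 and 24.8 in control islets. It was above the array median on 3 of the 6 arrays, the fewest that allowed a test, and both of its 03 signals and that of control array 01 were below it. Reg3a was higher in the knockout in 3 of the 3 pairs, as were 13.7% of all genes tested, but its log2 difference of 0.71 was under its standard error of 1.62 (limma adjusted p 0.9998).

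The other members were below the array median on all 6 arrays and were not tested. Reg3g, an antibacterial lectin of the gut, had 70.6, 108 and 3.52 units in knockout islets, against 77.2, 86.5 and 3.01 in control islets. It too was lowest on both 03 arrays. Reg4, which is known from gut epithelium, had 103, 60.9 and 41.6 units in knockout islets, against 6.20, 58.6 and 76.9 in control islets, and did not follow the order of the other members. Its highest value and its lowest were those of pair 01, and signals this dim carry little information about a difference. Of a list of 12 gut epithelium markers 11 had a probe set, and 8 of these, such as the intestinal transcription factor Cdx2 and the enterocyte fatty acid-binding protein Fabp2, were below the array median on every array, with at most 90.6 units in knockout and 88.6 in control islets. The other 3 were tested and 0 passed. Vil1, the brush border protein villin, was bright, with 1019, 849 and 642 units in knockout islets, against 2067, 1017 and 1012 in control islets, and differed by -0.65 (SE 0.35). Lgals4, a galectin of gut epithelium, had 120, 343 and 163 units in knockout islets, against 289, 206 and 185 in control islets, and differed by -0.24 (SE 0.45). Muc2, the mucin of goblet cells, had 183, 162 and 217 units in knockout islets, against 3.06, 64.0 and 32.3 in control islets. The control signals of Muc2 were all below the array median, so it was tested through the knockout arrays alone and its difference has no firm size: 3.33 as deposited and 1.57 after 50 units were added.

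**Figure D2:**
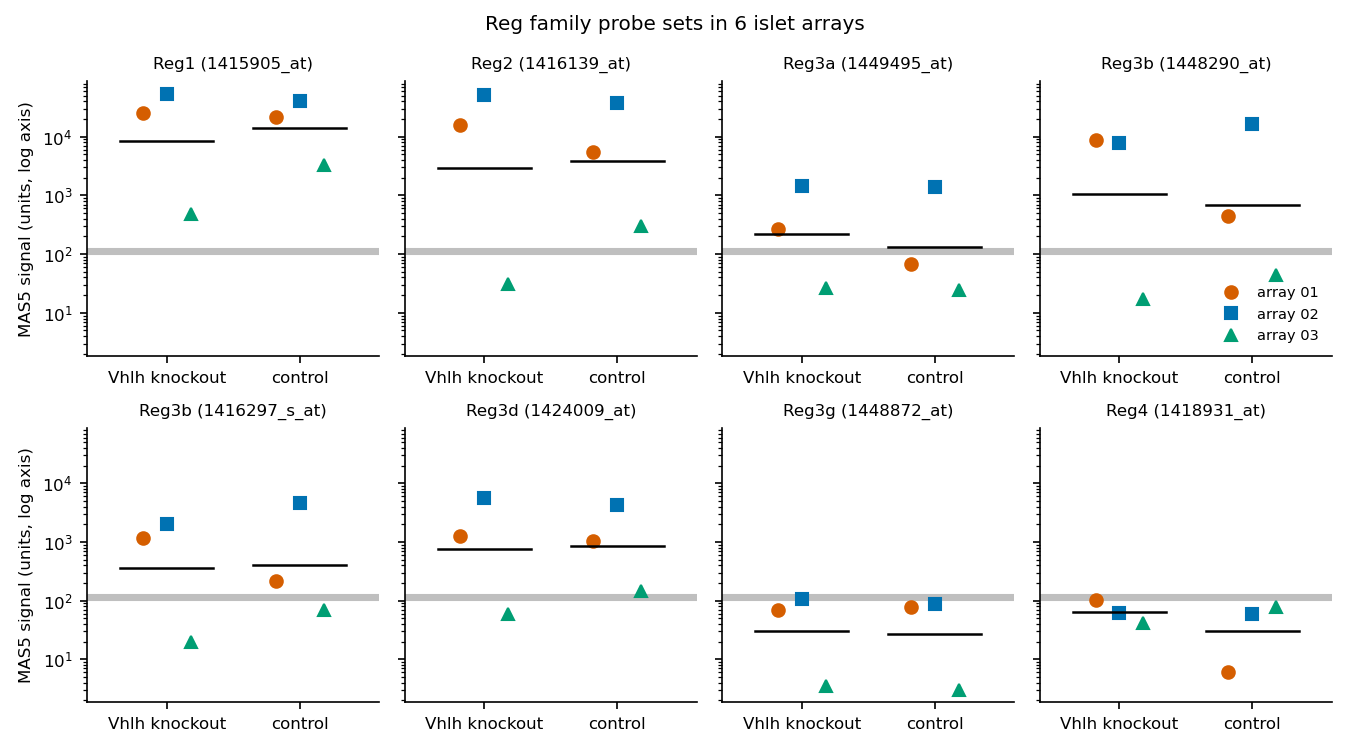
MAS5 signal of each Reg probe set (log axis, signal units) on the knockout arrays (left) and control arrays (right), with colour and shape for the array number, black bars for the geometric mean of 3 arrays and a grey band for the range of the array medians. Arrays numbered 02 are the highest and arrays numbered 03 the lowest for Reg1, Reg2, Reg3a, Reg3d and Reg3g in both genotypes. The 03 signals of Reg3a and all signals of Reg3g were below the array medians.

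Acinar transcripts were read beside the Reg genes on each array. The list of acinar enzymes held 26 genes, of which 18 had a probe set with a single symbol and 18 were tested. Their geometric mean signal was 19960, 39610 and 338 units on knockout arrays 01, 02 and 03, against 20420, 30430 and 3683 on control arrays 01, 02 and 03. The highest array was 117-fold the lowest. Their summed signal ran between 12380 and 813991 units in knockout islets and between 123260 and 635162 in control islets, and no gene of the list was at 0, the lowest single signal being 17.8 units. The mean log2 level was 12.65 ± 3.72 in knockout and 13.69 ± 1.62 in control islets (SD, n = 3 each), and an exact permutation test of the mean, two-sided, gave p = 0.8 where the smallest possible is 0.1. The median log2 difference of the enzymes was -1.09, with 18 of 18 below 0 and 0 passing, but it was 0.98 without knockout array 03 and 0.19 without both 03 arrays. The second list, of 15 tested granule and identity genes of acinar cells, spanned 63.7-fold, with p = 0.8 in the same exact permutation test.

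Reg1, Reg2 and Reg3d ordered the 6 arrays alike: knockout 02, control 02, knockout 01, control 01, control 03 and knockout 03 from high to low. The acinar enzyme mean gave the same order except that both 01 arrays, which differed by a log2 value of -0.03, changed places. Of the 50 genes with the widest range over the arrays, 22 were among the 33 tested genes of both acinar lists and 4 were Reg genes. The median range was 85.6-fold for the 33 acinar genes and 2.16-fold for all genes tested. How much of the Reg signal came from carried-over acinar tissue was not tested.

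The genes most like each member over the 6 arrays were ranked by Pearson's r of log2 signal. All such values share the same few arrays and their acinar levels, so they describe these 6 arrays and no p is given. For Reg1 the nearest were Klk1 (r = 0.999), Pmm1, Pnliprp2, Dmbt1 and Pla2g1b (r = 0.994), of which 4 are on the acinar lists, and 23 of the 33 acinar genes were among its 100 nearest. Klk1 is the tissue kallikrein, Pnliprp2 a pancreatic lipase-related protein and Pla2g1b the pancreatic phospholipase A2. For Reg3d the nearest were Spink1 (r = 0.999), the trypsin inhibitor of acinar granules, Timm10b, Ap5b1, Cckar, the cholecystokinin receptor of acinar cells, and Hsd17b13, with 11 of the 33 acinar genes among the 100 nearest. For Reg2 they were Sphk1 (r = 0.993), Tnnc1, Casq1, Reg1 (r = 0.990) and Snx17, with 18 of the 33. Reg3b and Reg3a had fewer acinar genes among their 100 nearest, with 2 and 3 of the 33. Their median r with the 33 acinar genes was 0.871 and 0.782, against 0.978 for Reg1, 0.954 for Reg2 and 0.926 for Reg3d, and their median r with all genes tested was -0.016 and -0.0075. The nearest to Reg3b were Hlf (r = 0.991), Tmem115, Rpl4, Slc66a2 and Dock6, and the nearest to Reg3a were 4930445K14Rik (r = 0.997), Trappc5, Klk1b24, Slc27a2 and Rnh1. Among the Reg genes themselves, Reg1 with Reg2 had the highest r (0.990) and Reg1 with Reg3a the lowest (0.830).

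**Figure D3:**
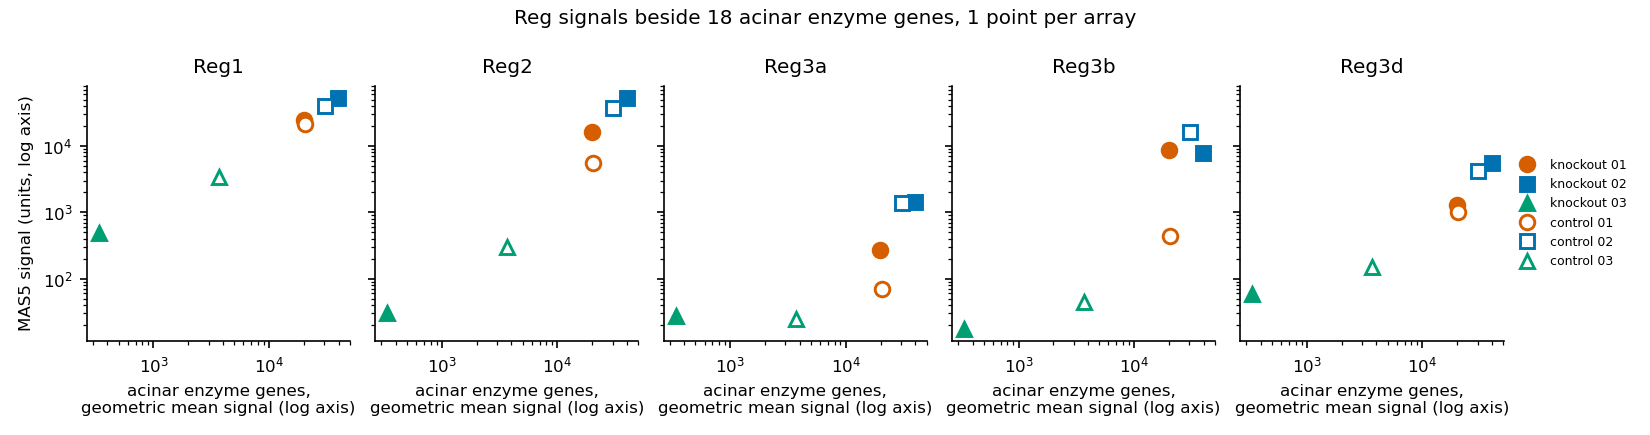
Signal of each tested Reg gene (vertical log axis) against the geometric mean signal of 18 acinar enzyme genes (horizontal log axis), with 1 point per array, filled for knockout and open for control. At nearly equal acinar enzyme level knockout 01 lies above control 01 for each gene, by the most for Reg2, Reg3a and Reg3b. The control 01 signal of Reg3a was below the array median. Between both 03 arrays Reg3d differs by -1.31 and the acinar enzyme mean by -3.45. The acinar granule and identity genes have a median of -1.22 there, and the knockout 03 signal of Reg3d was below the array median.

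Within same-numbered pairs the Reg genes could be set beside acinar transcripts at matched age and recorded sex, with 1 array per genotype and so no error within a pair. In pair 01 the acinar enzyme mean differed by -0.03 on the log2 scale, with single enzymes between -0.79 and 0.35. Whether the scale is compressed for the brightest enzymes was not tested. The acinar granule and identity genes spread more widely in this pair, between -3.29 and 1.83, with a median of -0.17. Their geometric mean signal was 1907 units on knockout array 01 and 2319 on control array 01. Reg1 and Reg3d differed by 0.22 and 0.31, while Reg2 differed by 1.55, Reg3a by 1.97 and Reg3b by 4.29. The Reg3b and Reg3a differences exceeded those of all 33 acinar genes, and that of Reg2 exceeded 32 of them. Reg3b had the eighth highest difference of all 11609 genes in this pair, Reg3a ranked 133 and Reg2 258. After 50 units were added to each signal, Reg3b ranked 3 and, like Reg2, was above all 33 acinar genes, while Reg3a, whose control 01 signal was below the array median, had a difference of 1.43, ranked 169 and exceeded 32 of the 33. Past 4-fold higher in the knockout there was 1 Reg gene of 5, against 1.09% of all genes.

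In pair 02 the acinar enzymes were slightly higher in the knockout, by 0.38, and Reg1, Reg2 and Reg3d differed by 0.40, 0.48 and 0.42. Reg3a differed by 0.05 and Reg3b by -1.05, each below 32 of the 33 acinar genes. None of the 5 Reg genes was past 4-fold in either direction, against 1.32% of all genes. In pair 03, where acinar enzymes were lowest, their mean differed by -3.45, with Reg1 at -2.81 and Reg2 at -3.29. Reg3d differed by -1.31, Reg3b by -1.38 and Reg3a by 0.12, but for Reg3a and Reg3b both arrays of this pair were below the array median. For Reg2 and Reg3d the knockout array of this pair was below it. The Reg3d difference was above those of 24 of the 33 acinar genes, and the granule and identity genes had a median of -1.22. Past 4-fold lower there were 2 of 5 Reg genes, against 1.15% of all genes.

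**Figure D4:**
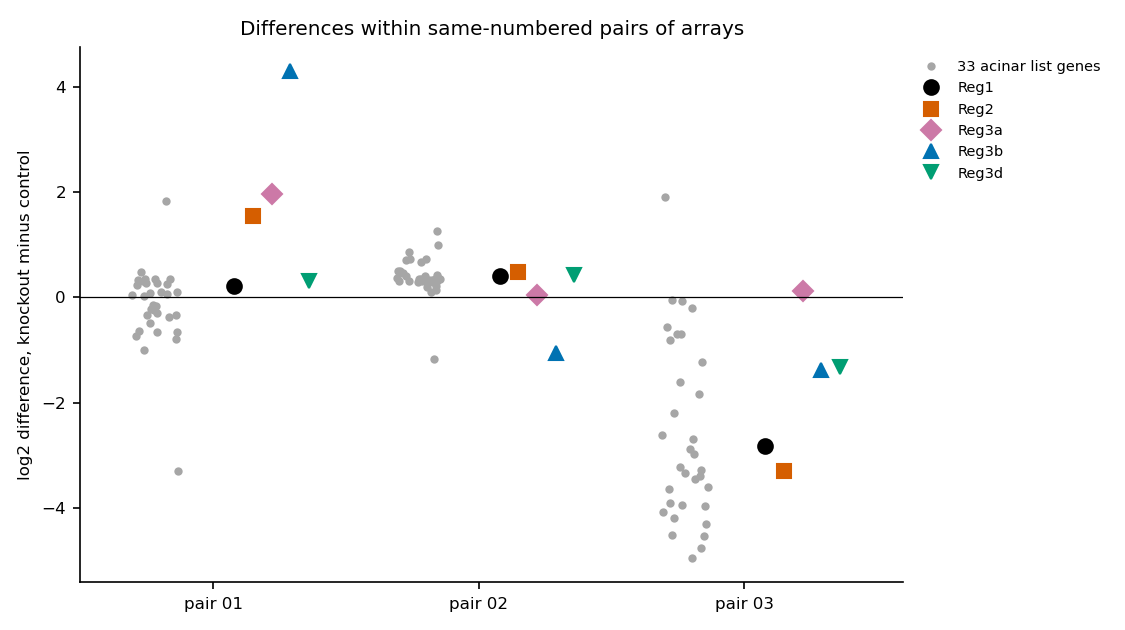
Log2 difference, knockout minus control, in each same-numbered pair of arrays for the 5 tested Reg genes (coloured) and the 33 tested acinar genes (grey). Reg1 lies within the acinar genes in each pair, and Reg3b lies above all of them in pair 01 at 4.29.

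The labels state no block, and the numbers were taken to pair the samples by the correlation rule given with the processing. With the replicate number as a block the standard errors were lower for all 5 tested genes, while 0 of 5 passed, against 0.0517% of all genes. The standard error of Reg3d was 0.36 with the block and 1.59 without it, and that of Reg1 0.56 with the block and 1.57 without it. The 95% interval with the block ran from -2.04 to 0.59 for Reg1, from -2.25 to 1.41 for Reg2, from -0.42 to 1.84 for Reg3a, from -1.65 to 2.89 for Reg3b and from -1.04 to 0.65 for Reg3d, on the log2 scale. Each of these intervals holds 0, and the adjusted p was 0.99 for all 5 genes by limma. With the acinar enzyme mean as a covariate all 5 log2 differences were above 0. Those of Reg1, Reg2 and Reg3d turned to 0.32, 1.28 and 0.81, and those of Reg3a and Reg3b were 1.604 and 2.20. By limma 0 of the 5 passed (adjusted p 0.9982), with an unadjusted p of 0.035 for Reg2, 0.067 for Reg3b and at least 0.136 for the others. The share of all genes with an unadjusted p under 0.05 in that fit is not given here. With the acinar granule and identity genes as the covariate instead, Reg1 stayed below 0, at -0.19, and the other tested members were above 0. The unadjusted p of Reg2 was then 0.33 by limma. Without knockout array 03, Reg1, Reg2 and Reg3d were at 1.36, 2.88 and 1.63.

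Genes of the pathways that act on Reg transcription were read from lists. A list of 13 ligands held those of gp130 and also IL-1, TNF, IL-17 and interferon gamma, which act through other receptors. Of these 13 ligands 10 had a probe set, 4 were tested and 0 passed. Their median log2 difference was 0.21, against -0.00028 for all genes. The 3 of lowest p were the cardiotrophin gene Ctf1 (0.23, SE 0.37), the oncostatin M gene Osm (0.47, SE 0.76) and Clcf1 (-0.49, SE 0.85), a cytokine of the same group. Of 13 receptors, a list mixed in the same way, 11 were tested and 0 passed, with a median of 0.11. Those of lowest p were Cntfr (-0.75, SE 0.37), Lifr (-0.56, SE 0.29) and Osmr (0.63, SE 0.35), the receptor chains for CNTF, LIF and oncostatin M that act with gp130. Lifr had 2772, 5354 and 4335 units in knockout islets, all below 5590, 6101 and 6082 in control islets. Il6st, the gp130 gene, had 1117, 1050 and 1741 units in knockout islets, all above 847, 989 and 845 in control islets. Its log2 difference was 0.51 (SE 0.29). Over all genes tested 6.75% had groups that did not overlap.

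Of 16 signal transducers and targets 13 were tested and 0 passed, with a median of -0.03, 6 members above and 7 below 0. Cebpd, a transcription factor of the acute phase response, had the lowest p. Its signal was 858, 857 and 699 units in knockout islets, against 347, 421 and 405 in control islets, without overlap. The log2 difference of 1.04 (SE 0.26) had an adjusted p of 0.9998 over all genes by limma, or 0.599 with the replicate block. Junb (0.83, SE 0.48), an AP-1 subunit, and Pim1 (0.60, SE 0.42), a kinase induced by STAT proteins, followed. With the mean of all probe sets of a gene, the difference of Cebpd was 0.46 and that of Pim1 0.068. Extl3, an exostosin family glycosyltransferase that was reported to bind Reg protein in rat islets, had 926, 810 and 701 units in knockout islets, against 643, 561 and 541 in control islets. These groups did not overlap and the log2 difference was 0.48 (SE 0.26, limma adjusted p 0.9998), but averaging all of its probe sets turned the difference to -0.02. The median of the 4 tested exostosin genes was -0.19, and 0 passed.

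Of 15 genes known from pancreas injury and the acute phase response 9 were tested and 0 passed, with a median log2 difference of 0.62, 5 members above and 4 below 0. That median was -0.0056 without control array 03, -0.016 without both 03 arrays and 0.024 with array weights. Those of lowest p were Atf3 (1.25, SE 0.56), a stress-induced transcription factor, Lgals3 (1.58, SE 0.80), the galectin-3 gene, and Timp1 (0.62, SE 0.49), an inhibitor of matrix proteases. Lgals3 was higher in the knockout in pairs 01 and 03, by 2.33 and 2.51, and differed by -0.09 in pair 02. Its signals on control arrays 01 and 03, 23.0 and 69.9 units, were below the array medians, so the differences in those pairs have no firm size. Markers of other cell types were read in the same samples. The 14 tested stellate cell and fibroblast markers had a median of 1.13, with 13 above 0, and a summed signal between 8462 and 26510 units in knockout islets and between 5534 and 9288 in control islets, and none was at 0 on any array. Without knockout array 03 that median was 0.37, and without both 03 arrays 0.43. The 9 leukocyte markers had a median of 0.39, while the 11 duct markers had -0.14, the 14 beta cell markers -0.26 and the 9 markers of other islet cells 0.34, with 0 genes passing in each list. Their part in the values of the injury list was not tested.

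**Figure D5:**
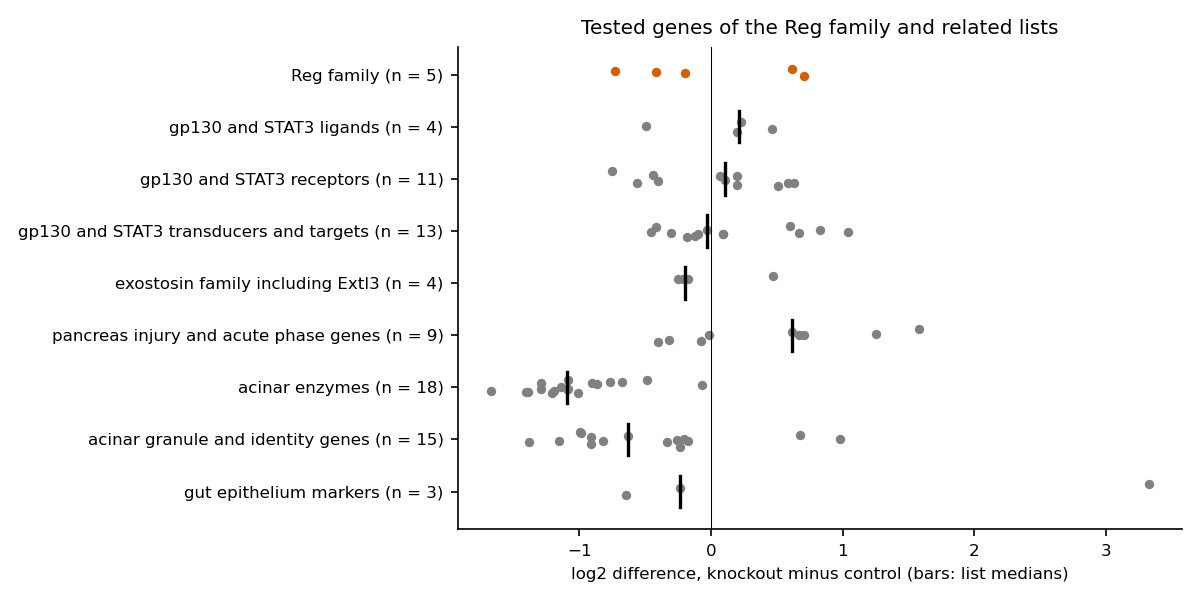
Log2 difference, knockout minus control, of the tested genes of the Reg family (orange) and of 8 related lists (grey), 1 point per gene, with a black bar for the median of each grey list. The acinar enzymes have a median of -1.09, and the 5 Reg genes lie between -0.73 and 0.71.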

How the data were processed

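RNA of 6 batches of islets was amplified by 2 cycles of cDNA synthesis and hybridised to 1 array each, per the labels' protocols. For every probe set the authors deposited a signal, an intensity that had not been log-transformed; GCOS 1.4 and MAS5 are the tools named in the submitters' processing notes. Their 2% trimmed mean was 500.003 on every array. No detection calls were used here, and precision rests on 3 arrays per genotype.

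Of 45101 probe sets, 64 controls were left out. Where a gene had several probe sets, the one with the highest average log2 signal stood for it (18193 genes, _x_at probe sets last), and it was tested if above the array median on at least 3 arrays (11609 genes). Log2 signals, with no value added, were compared with limma 3.58.1 in R 4.3.3 (lmFit, eBayes with trend) and p-values were adjusted by Benjamini-Hochberg across the 11609 genes. Folds are knockout over control. The fit was tested on simulated data.

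Deviations from the group means correlated at 0.148, 0.416 and 0.425 within pairs 01, 02 and 03. By the rule that each exceed 0.1 the numbers were taken to pair the samples. Knockout 02 with control 01 also reached 0.137, so the rule does not set pair 01 apart from a mismatched pair. The members and lists were chosen with earlier results of these data known. Named genes were the members, Vhl, up to 3 tested genes of lowest p per list and the 5 genes most like each tested member. Iapp, Cdx2, Fabp2, Ak4, Egln3, Adm and Il6st were chosen after their values were seen. Promoter sequences are RefSeq's (GRCm38.p6), aligned with Biopython 1.88 (match 1, mismatch -1, gap opening -2, gap extension -0.5).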

Additional observations from a re-analysis of the deposited data

How the results depend on the processing

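The count of Reg genes past the threshold was 0 in all 20 alternatives, with 0.99 the lowest adjusted p, so no Reg result crossed the threshold; the sign of the tested members' differences was not stable, and the cause of each change was not tested. With the acinar enzyme mean as a covariate the log2 differences were 0.32 for Reg1, 1.28 for Reg2 and 0.81 for Reg3d by limma, with an unadjusted p of 0.035 for Reg2. Those of Reg3a and Reg3b were 1.604 and 2.20. A covariate of acinar granule and identity genes, like the removals of both arrays of a number, was chosen after seeing the data. With it the differences were -0.19 for Reg1, 0.46 for Reg2, 0.35 for Reg3d, 1.21 for Reg3a and 1.45 for Reg3b, with an unadjusted limma p of 0.33 for Reg2. Without both arrays numbered 03 they were 0.31 for Reg1, 1.02 for Reg2 and 0.36 for Reg3d, with Osm at -0.29 and Clcf1 at 0.16. Without both arrays numbered 01, Reg3b was at -1.22, Reg4 at -0.42 and Lgals4 at 0.28. Leaving out 1 array at a time gave -2.05 to 1.36 for Reg1, -2.50 to 2.88 for Reg2, -0.65 to 2.40 for Reg3a, -1.35 to 3.59 for Reg3b and -1.64 to 1.63 for Reg3d, and for Ctf1 -0.080 to 0.59, Osm -0.41 to 1.05, Clcf1 -1.31 to 0.47 and Lgals4 -0.67 to 0.091. Positive values of Reg1, Reg2 and Reg3d came without knockout 03 or control 02. Reg3a was below 0 without knockout 02 or control 03, and Reg3b without knockout 01, knockout 02 or control 03. Array weights gave -0.47 for Reg3b, -0.059 for Ctf1 and -0.22 for Osm, and the mean of its probe sets -0.023 for Extl3. In this balanced design the replicate block cannot change a difference, only its error, so the unchanged directions carry no information. The block changed no call among the genes named from the family. The number of all genes past the threshold was 2, against 6 with the replicate block, 4 after adding 50 units, 4 with every probe set on its own, 0 to 5 without 1 array, 0 without both 01 or both 03 arrays and 1 without both 02 arrays. Signals below the array medians limit Reg3g and Reg4 throughout, Reg3a and Reg3b on both 03 arrays, Reg2 and Reg3d on knockout 03 and Reg3a on control 01, and with them the pair differences that use those arrays.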
